A study of Mus musculus with 30 samples.

Results

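Chemokines are small secreted proteins that direct the migration of leucocytes by binding G protein-coupled receptors on their surface. They are named after the spacing of their first cysteines (CC, CXC, XC and CX3C), and most ligands and receptors pair in more than one combination. Inflammatory members such as *Ccl2*, *Ccl5* and *Cxcl1* are induced when a tissue is injured and recruit monocytes, T cells and neutrophils. Homeostatic members such as *Cxcl12* and *Cxcl13* hold progenitor cells or lymphocytes in place, and the atypical receptors (*Ackr1* to *Ackr4*) bind chemokines without G protein signalling and transport or remove them.

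The chemokine and chemokine receptor genes of kidney and gastrocnemius muscle were taken from the gene symbols of the count tables, as every symbol formed by Ccl, Cxcl, Ccr, Cxcr, Ackr, Xcl or Xcr with a number and at most 1 letter, together with *Cx3cl1* and *Cx3cr1*. This gave 68 of the 55825 gene identifiers found in either table, 67 of them in both tables, under 63 symbols. The rule reads only the symbols. By GENCODE M21 (GRCm38), 14 of the genes lie on chromosome 11, 13 on chromosome 9, 11 on chromosome 5 and 7 on unplaced scaffolds. The chromosome 5 members include 5 neighbouring ligands around *Cxcl1* within 147 kb and *Cxcl9*, *Cxcl10* and *Cxcl11* within 44.1 kb.

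The libraries came from male wild-type C57BL/6J mice of a study on non-alcoholic fatty liver disease, with 5 libraries per group and tissue and 30 in all. All mice lived at thermoneutrality (30 to 32 °C) from the age of 6 weeks. From Week 7, the CD group ate a chow diet and the WD group a western diet with 21% fat and 35% sucrose, and both received water by gavage. The WD + CHP group ate the western diet and received cyclo(His-Pro), a cyclic dipeptide of histidine and proline, in a dose of 20 mg/kg on 3 occasions each week, and the study ended for all mice at Week 24, following a 3-h fast. WD vs. CD addressed the effect of the diet, and WD + CHP vs. WD the effect of CHP on mice fed that diet. No source used here states which libraries share a mouse. The paper lists 24 male mice aged 24 weeks, fewer than the 30 libraries, so some mice must have given both tissues. The tissues were treated as separate, and the p-values measure the spread between these libraries. Mice shared by the tissues are not modelled in the fit across tissues. The extraction text of the labels speaks of frozen liver throughout and of a different kit for each tissue, so the tissue names were compared with marker genes. The summed level of 12 proximal tubule markers was 32000 to 39400 CPM (counts scaled to a common library size) in the kidney libraries and 221 to 380 in gastrocnemius, and that of 12 fast muscle fibre markers was 18.1 to 29.4 and 225000 to 298000 CPM, respectively.

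Each kidney library held 37189192 to 38211422 counted reads and each gastrocnemius library 50319024 to 53282969. Of the 67 chemokine and receptor genes in the kidney table, 35 passed the filter on low counts (20 of 45 ligands and 15 of 22 receptors), 22 had between 1 and 96 counts over the 15 libraries, and 10 had no count. In gastrocnemius, 26 of 68 passed (18 of 46 ligands and 8 of 22 receptors), 29 had between 1 and 124 counts, and 13 had none. In all, 22 genes passed in both tissues. A gene could pass through the group in which it was high, so the counts given for the genes tested do not describe all members. In bulk tissue, fewer cells of a type and less RNA per cell cannot be told apart.

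*Cxcl12* and *Cxcl14* were among the most abundant ligands of both tissues, and *Ackr3* was the most abundant receptor of both. Levels were compared between genes as CPM per kilobase of exon, averaged over the 15 libraries of a tissue. In kidney, the leading ligands were *Cx3cl1*, the membrane-anchored fractalkine (24.7 CPM per kb), *Cxcl12*, the stromal ligand of *Cxcr4* and *Ackr3* (17.3), *Cxcl16*, a transmembrane chemokine and scavenger receptor (12.7), *Cxcl14* (8.47) and *Ccl28*, a mucosal chemokine (5.7). The leading kidney receptors were *Ackr3*, the atypical receptor that takes up *Cxcl12* and *Cxcl11* (18.1), and at a much lower level *Cxcr4* (1.93), the monocyte receptor *Ccr2* (0.995), the fractalkine receptor *Cx3cr1* (0.974) and the T cell receptor for interferon-induced chemokines, *Cxcr3* (0.464).

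Gastrocnemius shared *Cxcl14* (15.7 CPM per kb) and *Cxcl12* (12.6) among its leading ligands, followed by *Ccl11*, an eosinophil attractant (9.22), *Ccl6* (2.13) and *Ccl27a* (1.6). Of the exon sequence of *Ccl27a*, 45% in windows of 50 bases also occurs in other genes, so its count is uncertain. Its leading receptors were *Ackr3* (4.44), *Ackr1*, the venular chemokine receptor (1.04), *Cxcr4* (0.975), *Ackr2*, which degrades inflammatory CC chemokines (0.433), and *Ccr2* (0.261). *Cx3cl1* and *Cxcl16*, which were among the leading kidney ligands, stood at 0.586 and 0.478 CPM per kb in muscle. The tables of the tissues were scaled separately, so these levels are set side by side without a test.

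**Figure D1:**
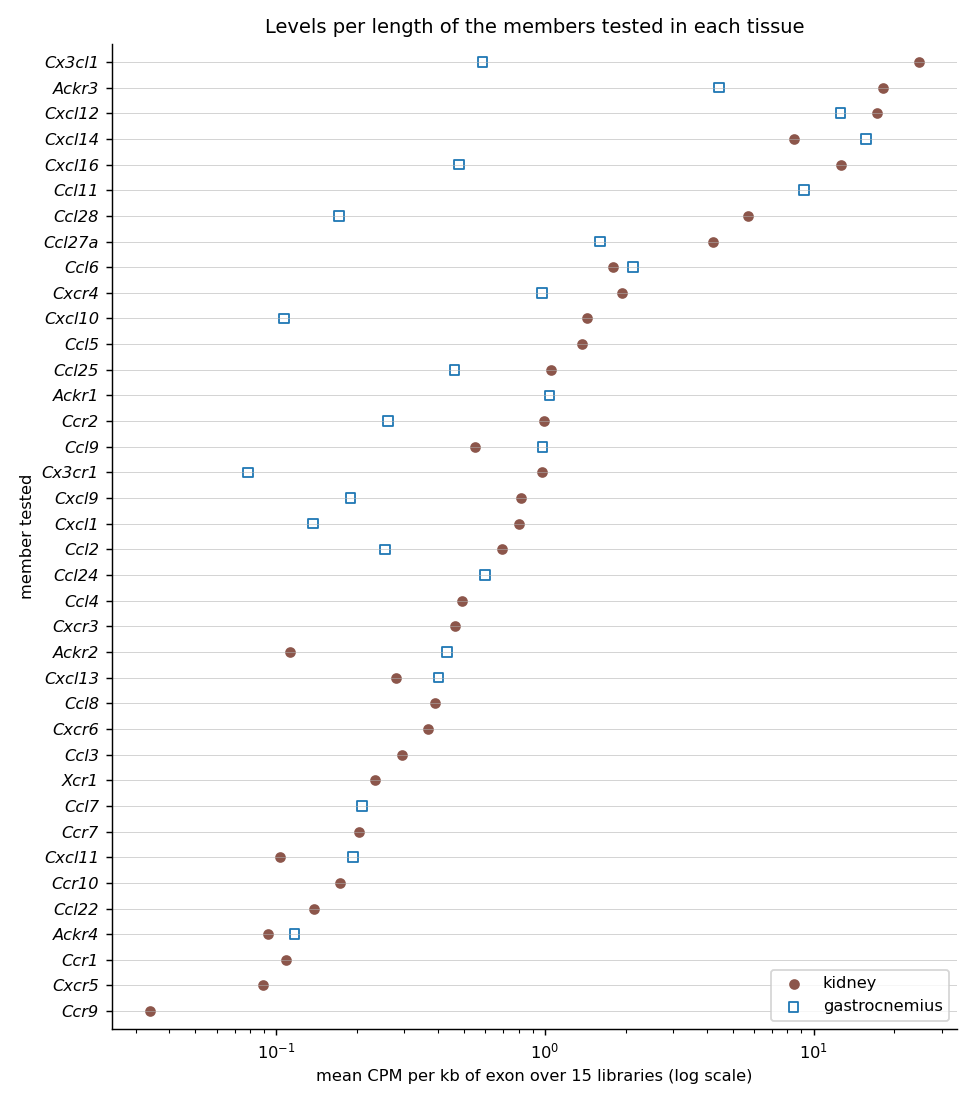
Mean level of 38 chemokine and receptor genes tested in at least 1 tissue, in CPM per kilobase of exon on a log axis, with 1 point per tissue (mean of 15 libraries). *Cx3cl1*, *Cxcl12*, *Cxcl16* and *Ackr3* lead in kidney, whereas *Cxcl14*, *Cxcl12* and *Ccl11* lead among the gastrocnemius ligands.

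In kidney, WD feeding was accompanied by higher levels of 4 ligands and 1 atypical receptor. *Cxcl13*, the B cell attractant, was 6.76-fold higher in WD than in CD mice, *Cxcl1*, a neutrophil attractant, 3.54-fold, *Ccl5*, a T cell and monocyte attractant, 1.75-fold, *Ackr3* 1.27-fold and *Cxcl16* 1.19-fold. These 5 of the 35 members tested (14.3%) had an adjusted p under 0.05, and all were upregulated, beside 9.65% of all 17120 genes tested in either direction and 4.62% upregulated. The 35 members had a median log2 fold change of 0.22, with 29 above 0 (82.9%), whereas the median over all genes tested was 0.0015 and 50.4% of them were above 0.

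The 250 bases upstream of the RefSeq gene start (GRCm38.p6) are shown for the upregulated kidney members found in the promoter table, since these genes rose together, and they were searched for 5 promoter motifs. Capitals mark TATAAA in *Cxcl13* and *Ackr3* and the NF-κB consensus in *Cxcl1*. *Ccl5*, *Cxcl16* and the gastrocnemius member *Cxcl11* are named only.
Cxcl13, chr5:95956689-95956938, plus strand: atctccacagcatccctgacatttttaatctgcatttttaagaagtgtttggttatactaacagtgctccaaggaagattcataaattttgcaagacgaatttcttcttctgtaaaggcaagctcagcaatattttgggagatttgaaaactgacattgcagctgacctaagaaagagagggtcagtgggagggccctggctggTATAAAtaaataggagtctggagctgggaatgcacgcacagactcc
Cxcl1, chr5:90890995-90891244, plus strand: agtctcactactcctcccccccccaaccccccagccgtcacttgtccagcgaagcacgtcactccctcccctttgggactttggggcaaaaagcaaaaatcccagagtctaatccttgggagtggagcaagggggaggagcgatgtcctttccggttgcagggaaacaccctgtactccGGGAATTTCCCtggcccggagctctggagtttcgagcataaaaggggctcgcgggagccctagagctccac
Ackr3, chr1:90203730-90203979, plus strand: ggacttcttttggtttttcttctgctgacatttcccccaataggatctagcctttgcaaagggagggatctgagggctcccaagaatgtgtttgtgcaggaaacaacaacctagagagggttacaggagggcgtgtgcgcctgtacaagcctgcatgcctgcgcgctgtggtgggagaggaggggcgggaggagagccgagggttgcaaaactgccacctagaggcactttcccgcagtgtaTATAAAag

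TATAAA lay at −46 to −41 in *Cxcl13* and at −8 to −3 in *Ackr3*, counted from the gene start. The NF-κB consensus lay at −71 to −62 of *Cxcl1* on the plus strand and at −70 to −61 on the minus strand, overlapping itself. Both strands were searched, in windows that run from 250 bases before to 50 after the start. Over all 32851 such windows, 13.6% held TATAAA and 8.46% the NF-κB consensus, and over the 53 windows of 46 member symbols 26.4% and 22.6% did. The other motifs searched were the interferon-type repeat of GAAA, any 2 bases and GAAA (3.44% of all windows and 5.66% of the members'), TGANTCA (7.81% and 17%) and TTCNNNGAA (8.3% and 5.66%), and none of these was found in the 3 windows. A match of letters is a description of the sequence and not of a bound factor.

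*Cxcl13* (chr5:95956951-95961068, plus strand) was close to the limit of detection in CD kidneys. Its levels were 0.105, 0.0519, 0.0784, 0.181 and 0.0254 CPM in the CD libraries (1 to 7 counts), 0.396, 0.769, 1, 0.528 and 0.388 CPM in WD (15 to 37 counts) and 0.131, 0.356, 0.223, 0.333 and 0.244 CPM in WD + CHP (5 to 13 counts). Every WD library stood above every CD library and above every WD + CHP library. The log2 fold change in WD vs. CD was 2.76 ± 0.41 (SE, n = 5 per group), with an edgeR adjusted p of 0.000685. In WD + CHP vs. WD the fold was 0.42 (log2 fold change −1.25 ± 0.34), with an unadjusted p of 0.00185 and an adjusted p of 0.157, which does not pass the threshold. WD + CHP kidneys remained 1.51 ± 0.47 above CD on the log2 scale (adjusted p = 0.0441).

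*Cxcl1* (chr5:90891241-90893115, plus strand) was measured at 0.681, 0.389, 0.523, 0.439 and 0.865 CPM in CD, 2.03, 1.59, 3.22, 2.14 and 1.34 CPM in WD and 1.41, 1.72, 1, 4.44 and 0.758 CPM in WD + CHP kidneys. The CD and WD libraries did not overlap, and the WD + CHP libraries ran from within the CD range to above the WD range, with replicate 4 highest of all 15. The log2 fold change was 1.83 ± 0.42 in WD vs. CD (adjusted p = 0.0123) and −0.15 ± 0.38 in WD + CHP vs. WD (adjusted p = 0.93). Its cluster neighbours *Cxcl2* (54 counts over the 15 libraries), *Cxcl5* (21), *Cxcl15* (6) and *Cxcl3* (1) and the shared neutrophil receptor *Cxcr2* (53) were too low to be tested.

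*Ccl5* (chr11:83525778-83530518, minus strand) stood at 1.13, 0.7, 0.994, 1.26 and 0.941 CPM in CD, 1.58, 2.25, 1.81, 1.45 and 1.73 CPM in WD and 1.07, 1.75, 0.862, 0.832 and 1.43 CPM in WD + CHP. All WD libraries were above all CD libraries, and 4 of the 5 WD + CHP libraries were below the lowest WD library. Its log2 fold change was 0.81 ± 0.21 in WD vs. CD (adjusted p = 0.0214) and −0.57 ± 0.21 in WD + CHP vs. WD (unadjusted p = 0.0134, adjusted p = 0.298). The WD vs. CD call was lost without CD replicate 2 (log2 fold change 0.71) and without WD replicate 2 (0.71).

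*Cxcl16* (chr11:70453983-70459984, minus strand) had the smallest fold of the 5 called members and a narrow spread within each group. CD libraries were at 35.5, 34.7, 34.9, 32.8 and 35.7 CPM, WD libraries at 42.7, 39.4, 40.9, 41.1 and 42.4 CPM and WD + CHP libraries at 37, 39.5, 39.7, 41.8 and 38.6 CPM. Both WD-fed groups lay above all CD libraries. The log2 fold change was 0.25 ± 0.04 in WD vs. CD (adjusted p = 0.00118), −0.07 ± 0.04 in WD + CHP vs. WD (adjusted p = 0.534) and 0.18 ± 0.04 in WD + CHP vs. CD (adjusted p = 0.00884). Of its exon bases, 18.3% overlap *Zmynd15* on the opposite strand, which had 375 to 493 counts per kidney library and a log2 fold change of 0.12 (adjusted p = 0.201), and whether the counting used strand is not given in the sources used here. Its receptor *Cxcr6*, found on effector T and NKT cells, had a mean of 0.647 ± 0.184 CPM (SD, n = 5) in CD and 0.771 ± 0.0969 CPM in WD (adjusted p = 0.464).

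*Ackr3* (chr1:90203980-90216751, plus strand) was the only receptor called in kidney. Its levels were 48.9, 43.6, 60.4, 59.3 and 50.9 CPM in CD, 66.2, 67.7, 78.3, 58.3 and 64.5 CPM in WD and 65.4, 61.5, 56.4, 65.1 and 64.2 CPM in WD + CHP. WD replicate 4 fell within the CD range, so the groups overlapped. This gave a log2 fold change of 0.35 ± 0.086 in WD vs. CD (adjusted p = 0.0176; 0.0515 without WD replicate 3) and −0.10 ± 0.086 in WD + CHP vs. WD (adjusted p = 0.709).

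*Cxcl12* (chr6:117168535-117181367), the main ligand of *Ackr3*, lay just outside the threshold in kidney, with 133 ± 18 CPM in CD, 158 ± 12.5 CPM in WD and 133 ± 6.94 CPM in WD + CHP (SD, n = 5 each). Its log2 fold change was 0.25 ± 0.077 in WD vs. CD (adjusted p = 0.0536) and −0.25 ± 0.077 in WD + CHP vs. WD (unadjusted p = 0.00542, adjusted p = 0.216). The signalling receptor *Cxcr4* had 3.83 ± 0.877, 3.51 ± 0.374 and 3.11 ± 0.326 CPM in the same order (adjusted p = 0.617 in WD vs. CD). WD vs. CD and WD + CHP vs. WD share the WD libraries, so a high or low WD value enters both comparisons with opposite sign.

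**Figure D2:**
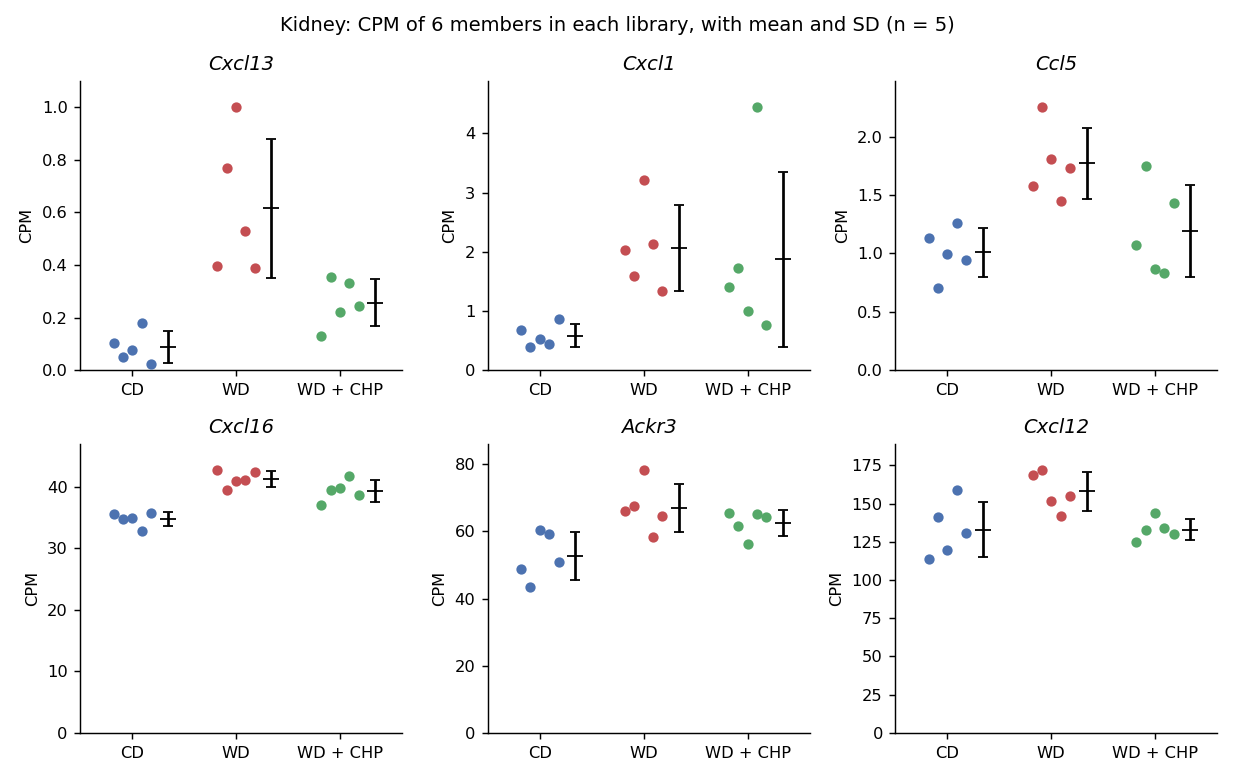
Level in CPM of 6 kidney members in each of the 15 libraries, grouped as CD, WD and WD + CHP, with the mean ± SD (n = 5) beside each group. All WD libraries stand above all CD libraries for *Cxcl13*, *Cxcl1*, *Ccl5* and *Cxcl16*, and the *Cxcl13* libraries of WD + CHP lie below those of WD.

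A further 5 kidney members had an unadjusted p under 0.05 in WD vs. CD without passing the adjusted threshold, which brought the total to 10 of 35 (28.6%, beside 24.9% of all genes). In addition to *Cxcl12*, they were *Ackr2*, *Ccl2*, *Ccl8* and *Cxcr5*. *Ccl2*, the main monocyte attractant, had 0.384 ± 0.161 CPM in CD, 0.857 ± 0.229 CPM in WD and 1.13 ± 0.705 CPM with CHP, and its log2 fold change was 1.15 ± 0.42 in WD vs. CD (adjusted p = 0.0958) and 1.55 ± 0.41 in WD + CHP vs. CD (adjusted p = 0.023). Its receptor *Ccr2* did not follow, with 6.53 ± 1.06, 6.31 ± 0.562 and 7.32 ± 0.96 CPM (log2 fold change −0.05 ± 0.11 in WD vs. CD, adjusted p = 0.829). The monocyte attractant *Ccl8* had a log2 fold change of 0.81 ± 0.37 (adjusted p = 0.176). *Ackr2* had 0.248 ± 0.0992 CPM in CD and 0.455 ± 0.131 CPM in WD without overlap between the groups (log2 fold change 0.86 ± 0.29, adjusted p = 0.067). *Cxcr5*, the receptor of *Cxcl13* on B cells, had 0.15 ± 0.0816 CPM in CD, 0.437 ± 0.357 CPM in WD and 0.305 ± 0.179 CPM with CHP (log2 fold change 1.51 ± 0.55 in WD vs. CD, adjusted p = 0.0941). In 5 of the 35 members (14.3%), all WD libraries stood above all CD libraries, beside 4.02% of all genes. They were *Cxcl13*, *Cxcl1*, *Ccl5*, *Cxcl16* and *Ackr2*, and in no member did all WD libraries lie below.

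**Figure D3:**
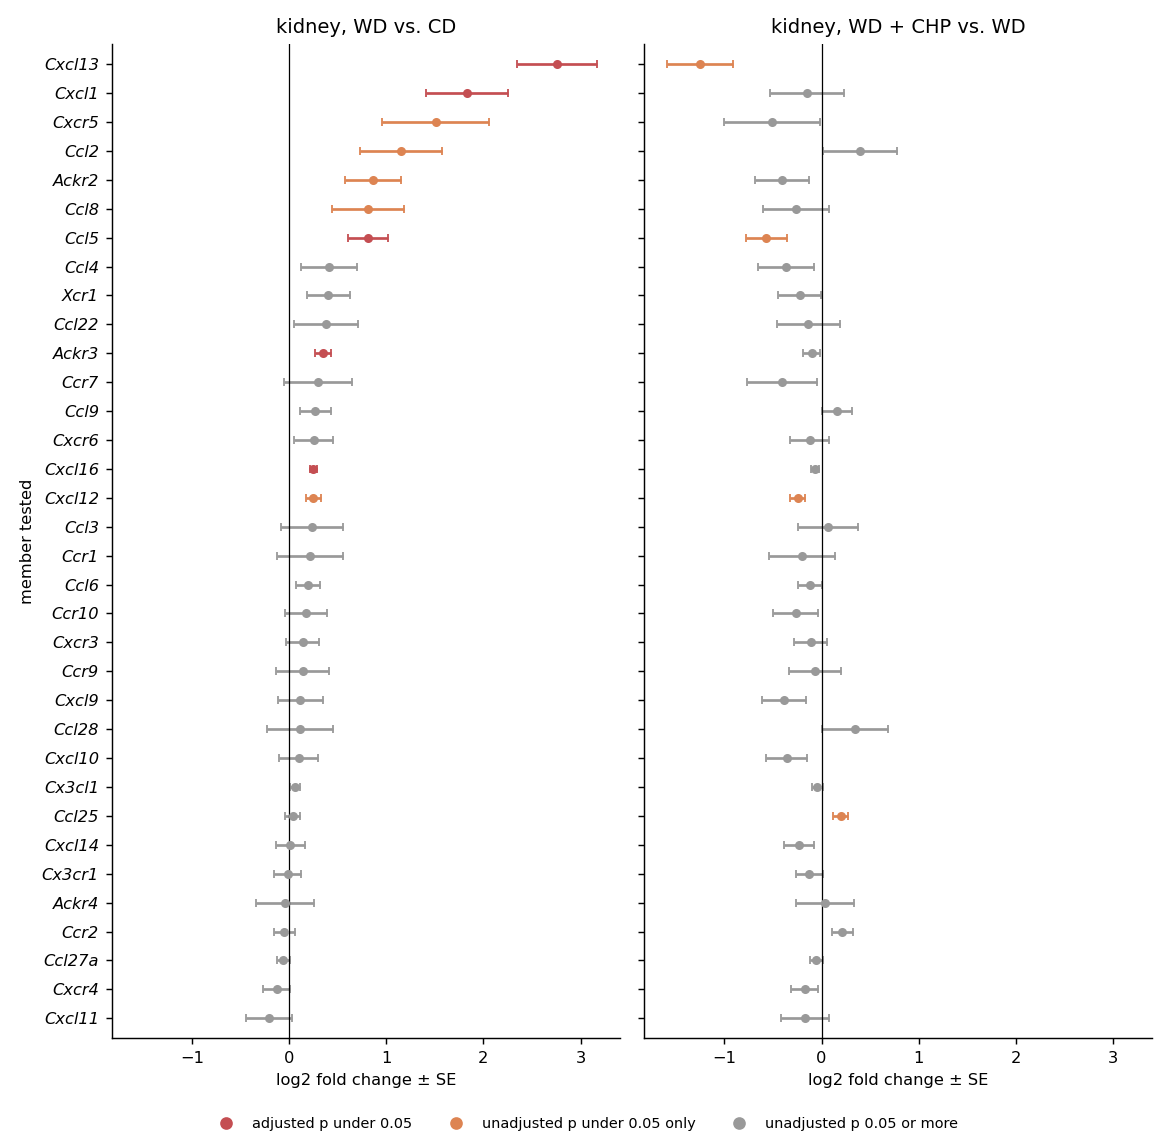
Log2 fold change of 34 of the 35 kidney members tested in WD vs. CD and in WD + CHP vs. WD, with bars of 1 SE. Of the 34 plotted, 28 lie above 0 in WD vs. CD and 27 below 0 in WD + CHP vs. WD, where no adjusted p is under 0.05 and the WD libraries are shared.

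The other ligand and receptor pairs had no call between CD and WD kidneys, with errors that were wide for those of few counts. Fractalkine (*Cx3cl1*) had 95.3 ± 5.88 CPM in CD and 99.4 ± 5.56 CPM in WD (log2 fold change 0.06 ± 0.055, adjusted p = 0.535), and *Cx3cr1*, found on resident macrophages and monocytes, 4.55 ± 0.869 and 4.5 ± 0.392 CPM (adjusted p = 0.962). The interferon-induced ligands *Cxcl9* (log2 fold change 0.11 ± 0.23), *Cxcl10* (0.10 ± 0.2) and *Cxcl11* (−0.21 ± 0.24) and their receptor *Cxcr3* (0.14 ± 0.17) had adjusted p-values of 0.65 to 0.812. *Ccr7*, which guides dendritic cells and T cells to lymph nodes, had a log2 fold change of 0.30 ± 0.35 (adjusted p = 0.653). Of its ligands, *Ccl19* had 27 counts over the 15 libraries and the *Ccl21* genes listed for a tissue had none in any of its libraries. *Ccl21d* is not listed for kidney.

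*Xcr1*, the receptor of cross-presenting dendritic cells, had a log2 fold change of 0.40 ± 0.22 (adjusted p = 0.264), and its ligand *Xcl1* was too low to be tested (48 counts). *Ackr4*, which removes *Ccl19*, *Ccl21* and *Ccl25*, was at −0.04 ± 0.3 (adjusted p = 0.952), and *Ackr1* had 16 counts. The abundant ligands *Cxcl14* (0.01 ± 0.15), *Ccl28* (0.11 ± 0.34) and *Ccl25* (0.03 ± 0.076) had adjusted p-values of 0.826 to 0.973. *Ccl3*, *Ccl4*, *Ccl6*, *Ccl9*, *Ccl22*, *Ccl27a*, *Ccr1*, *Ccr9* and *Ccr10* ranged from −0.06 to 0.41, with adjusted p-values of 0.305 to 0.801.

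CHP was accompanied by no called change of a chemokine or receptor gene in kidney. By edgeR and limma-voom, 0 of 35 members passed the threshold in WD + CHP vs. WD, beside 0.105% of all genes by edgeR. That share rests on 18 genes, a number that was 194 by DESeq2, 97 when replicate 2 of WD was left out, 45 and 47 when replicate 1 or 5 of WD + CHP was, 7 for its replicate 2, and 0 on omission of replicate 1, 4 or 5 of WD or replicate 3 or 4 of WD + CHP. DESeq2 also called 0 members, but gave no adjusted p for 22 of the members, whose counts are low. An unadjusted p under 0.05 was found for 4 members (11.4%, beside 11.4% of all genes), which were *Cxcl13*, *Cxcl12* and *Ccl5*, each lower in WD + CHP, and *Ccl25*, the ligand of *Ccr9*, which had 7.48 ± 0.482 CPM in WD and 8.58 ± 0.549 CPM in WD + CHP (log2 fold change 0.20 ± 0.076, adjusted p = 0.316). *Cxcl13* was the only member without overlap between WD + CHP and WD (2.86% of the members, beside 0.835% of all genes lower without overlap). It had passed the filter through the WD group. The 35 members had a median log2 fold change of −0.13, with 27 below 0, whereas over all genes the median was −0.0058 and 47.6% were above 0. All 8 CXC ligands tested were below 0, from −0.07 to −1.25, including *Cxcl9* (−0.39 ± 0.23) and *Cxcl10* (−0.36 ± 0.21). Of the 11 CC ligands tested, 5 were above 0 and 6 below (median −0.05). The CXC class was singled out after its values were seen, and 0 of its members were called.

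WD + CHP kidneys were also compared with CD kidneys. *Cxcl16*, *Cxcl1*, *Ccl2* and *Cxcl13* were upregulated (4 of 35, 11.4%, beside 12.1% of all genes), with *Cxcl1* at 1.68 ± 0.43 on the log2 scale (adjusted p = 0.0182), and *Cxcl16* was the one without overlap (2.86% of the members, beside 4.41% of all genes higher without overlap). The count of 4 fell to 2 without CD replicate 2, WD + CHP replicate 3 or WD + CHP replicate 4. *Ccl5* was at 0.24 ± 0.21 (adjusted p = 0.508) and *Cxcl12* at −0.00019 ± 0.077 (adjusted p = 0.999).

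Markers of lymphocytes moved with these ligands in kidney, and their part in the results was not tested. All 8 B cell markers tested had a higher mean estimate in WD than in CD, of which 3 were called, among them *Blk* (log2 fold change 1.00) and *Ighm* (1.76), and all 8 were below 0 in WD + CHP vs. WD, of which 0 were called and 1 had an unadjusted p under 0.05. Their summed level, of which *Ighm* is a part, had a median of 22.3 CPM in CD (9.49 to 44.3), 63.9 in WD (33.4 to 125) and 50.7 in WD + CHP (23.9 to 120). WD replicates 2 and 3, with the highest *Cxcl13* levels (0.769 and 1 CPM), had B cell sums of 125 and 106 CPM, and WD + CHP replicate 2 was the highest of its group for both (0.356 and 120 CPM), but with less *Cxcl13* than any WD library. WD replicate 1 had a B cell sum of 33.4 CPM with *Cxcl13* at 0.396 CPM, whereas CD replicate 4 had a sum of 44.3 CPM with *Cxcl13* at 0.181 CPM. All 8 T cell markers tested were above 0 in WD vs. CD, with *Lck* (0.67) and *Cd8a* (0.84) called, and the sum had medians of 5.6, 7.57 and 6.03 CPM in CD, WD and WD + CHP. All 8 fibroblast markers were above 0 as well, with *Col1a1* (0.73) and *Col1a2* (0.38) called, and the sum had medians of 143, 178 and 168 CPM. In WD vs. CD, 8 of 8 B cell, 5 of 8 T cell and 5 of 8 fibroblast markers had an unadjusted p under 0.05, beside 24.9% of all genes. All 8 T cell (median log2 fold change −0.47), all 8 fibroblast (−0.19) and all 8 blood endothelial markers (−0.10) were below 0 in WD + CHP vs. WD, as 27 of the 35 members were, with 0 called and 1, 1 and 2 at an unadjusted p under 0.05. All 6 adipocyte markers tested (median 0.62) and the 2 neutrophil markers tested (0.51) were above 0 there, with 0 called. In WD vs. CD, all 6 adipocyte markers were below 0 (median −0.88).

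Of the 12 macrophage markers, 8 were above 0 in WD vs. CD, 0 were called and 4 had an unadjusted p under 0.05, and the sums overlapped (medians of 200, 201 and 198 CPM). Calls were 0 among 4 monocyte, 2 neutrophil, 2 NK cell and 8 blood endothelial markers, which also had no unadjusted p under 0.05. *Cd209a* of 8 dendritic cell markers, *Reln* of 6 lymphatic markers, *Kit*, the only mast cell or eosinophil marker tested, and *Cfd* of 6 adipocyte markers were called lower. Hepatocyte markers were above 0 in WD vs. CD for 10 of 10, with *Ttr* and *Serpina1a* called, and WD replicate 5 stood apart with a sum of 903 CPM beside a highest value of 267 in the other kidney libraries of the WD-fed groups. Of the 10, 9 were below 0 in WD + CHP vs. WD (median log2 fold change −2.03), with 0 called and 7 at an unadjusted p under 0.05. Without WD replicate 5, the count of called members in WD vs. CD stayed at 5, and in WD + CHP vs. WD the log2 fold changes were −1.38 for *Cxcl13*, −0.25 for *Cxcl12* and −0.57 for *Ccl5*. Of 12 proximal tubule markers, 3 were called higher and 2 lower, and of 4 fast fibre markers *Pvalb* was called higher.

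Genes around the chemokine system in kidney were called in WD vs. CD for 4 of 37 genes of receptor signalling, 2 of 12 carriers and proteases, 0 of 9 inducers and 0 of 5 further family genes, beside 9.65% of all genes. Of the 37 genes of chemokine receptor signalling, *Rgs1*, which shortens the G protein signal of chemokine receptors in lymphocytes (log2 fold change 1.64 ± 0.35, adjusted p = 0.00796), and the β-arrestin *Arrb2* (0.19 ± 0.058, adjusted p = 0.0496) were upregulated in WD vs. CD. The β-arrestin *Arrb1* (−0.30 ± 0.05, adjusted p = 0.00194) and the kinase *Jak2* (−0.18 ± 0.046, adjusted p = 0.0221) were downregulated. Of 12 genes for carriers and proteases of chemokines, *Mmp2*, a protease that trims chemokines, was upregulated (0.51 ± 0.14, adjusted p = 0.0334) and *Sdc4*, a heparan sulfate carrier, downregulated (−0.21 ± 0.051, adjusted p = 0.0171). Of 9 cytokine and transcription factor genes known to induce chemokines, 0 were called and 3 had an unadjusted p under 0.05, namely the lymphotoxin subunit *Ltb* (0.84 ± 0.33, adjusted p = 0.115), *Nfkbia* (0.22 ± 0.087, adjusted p = 0.128) and *Relb* (−0.20 ± 0.085, adjusted p = 0.157). Of 5 chemokine family genes outside the naming rule, 0 were called and *Cmklr1* had an unadjusted p under 0.05. In WD + CHP vs. WD, 0 genes of these 4 lists were called, beside 0.105% of all genes, and 6, 1, 1 and 1 of them had an unadjusted p under 0.05, beside 11.4% of all genes.

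In gastrocnemius, the diet was accompanied by a higher RNA level of a single member, *Cxcl11*, which was 2.79-fold higher in WD than in CD mice. *Cxcl11* is known as an interferon-induced ligand of *Cxcr3* and *Ackr3*, but the gene is annotated as a polymorphic pseudogene. Whether a working ligand was made was not measured. This single call was 1 of 26 members tested (3.85%), beside 8.63% of all 15419 genes tested and 4.67% upregulated. An unadjusted p under 0.05 was found for 5 members (19.2%, beside 23.7% of all genes), which were *Cxcl11*, *Cxcl13*, *Ccl9*, *Ccl25* and *Ackr3*. The 26 members had a median log2 fold change of 0.12, with 18 above 0, and the median over all genes was 0.0014. The members' median was 0.046, 0.067 and 0.073 without CD replicate 5, WD replicate 5 and CD replicate 4, and 0.19 without either CD replicate 1 or WD replicate 1.

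*Cxcl11* (chr5:92359544-92365485, minus strand, annotated as a polymorphic pseudogene in GENCODE M21) stood at 0.348, 0.359, 0.312, 0.244 and 0.48 CPM in CD (12 to 25 counts), 0.953, 1.29, 0.859, 0.775 and 1.01 CPM in WD (42 to 69 counts) and 0.702, 0.496, 1.24, 0.726 and 1.18 CPM in WD + CHP. Both WD-fed groups lay above all CD libraries, and they overlapped each other. The log2 fold change was 1.48 ± 0.26 in WD vs. CD (adjusted p = 0.00196), −0.17 ± 0.23 in WD + CHP vs. WD (adjusted p = 0.825) and 1.31 ± 0.26 in WD + CHP vs. CD (adjusted p = 0.00531). Of its exon bases, 41.7% overlap *Gm2673* on the opposite strand, which had 0 to 7 counts per gastrocnemius library. Its neighbours *Cxcl10* (0.90 ± 0.51, adjusted p = 0.3) and *Cxcl9* (0.34 ± 0.23, adjusted p = 0.394) were not called, and *Cxcr3* had 48 counts over the 15 libraries and was not tested.

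*Cxcl13* stood in the opposite order in muscle, although it did not pass the threshold. Its gastrocnemius levels were 0.503, 0.473, 0.448, 1.26 and 0.807 CPM in CD, 0.438, 0.375, 0.292, 0.258 and 0.23 CPM in WD and 0.312, 1.01, 0.172, 0.157 and 0.191 CPM in WD + CHP. All WD libraries were below all CD libraries, and in WD + CHP replicate 2 stood apart. With *Cxcl11*, these were the 2 of 26 members without overlap between WD and CD (7.69%, beside 7.84% of all genes). Between WD and CD, the log2 fold change was −1.12 ± 0.46, with an unadjusted p of 0.0256 and an adjusted p of 0.141. *Cxcr5* had 17 counts over the 15 libraries.

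Of the other ligands, *Ccl9*, a myeloid attractant, had 2.76 ± 0.425 CPM in CD, 3.62 ± 0.752 CPM in WD and 2.59 ± 0.526 CPM with CHP (log2 fold change 0.39 ± 0.16 in WD vs. CD, adjusted p = 0.134). *Ccl25* had 3.87 ± 0.504 CPM in CD and 3.13 ± 0.252 CPM in WD (−0.31 ± 0.099, adjusted p = 0.0645). The abundant *Cxcl12* (0.06 ± 0.097), *Cxcl14* (−0.20 ± 0.15), *Ccl11* (0.07 ± 0.14), *Ccl6* (0.36 ± 0.23) and *Ccl27a* (0.09 ± 0.13) had adjusted p-values of 0.35 to 0.819. *Ccl2*, *Cxcl1*, *Cxcl16* and *Cx3cl1*, for which kidney and muscle can be set side by side, had log2 fold changes of −0.01 ± 0.42, −0.29 ± 0.44, 0.21 ± 0.13 and 0.23 ± 0.17 in muscle. *Ccl7*, *Ccl24* and *Ccl28* were at 0.43 ± 0.5, 0.15 ± 0.23 and 0.03 ± 0.2.

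Among the gastrocnemius receptors, *Ackr3* had 13.7 ± 1.56 CPM in CD, 16 ± 1.04 CPM in WD and 14.9 ± 2.1 CPM with CHP (0.22 ± 0.093 in WD vs. CD, adjusted p = 0.164). *Cxcr4* had 1.86 ± 0.305, 1.46 ± 0.256 and 1.98 ± 0.477 CPM (−0.35 ± 0.17, adjusted p = 0.211). *Ccr2* (−0.26 ± 0.19), *Cx3cr1* (0.09 ± 0.28), *Ackr1* (0.23 ± 0.14), *Ackr2* (−0.21 ± 0.17) and *Ackr4* (0.14 ± 0.25) had adjusted p-values of 0.334 to 0.878. Of the exon sequence of *Ackr1*, 20.4% in windows of 50 bases also occurs in another gene. *Ccl5* (29 counts over 15 libraries), *Cxcr6* (41), *Ccr7* (23), *Ccl19* (6), *Cxcr2* (13), *Cxcl2* (11), *Cxcl5* (12), *Xcl1* (3) and *Xcr1* (51) were too low to be tested.

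**Figure D4:**
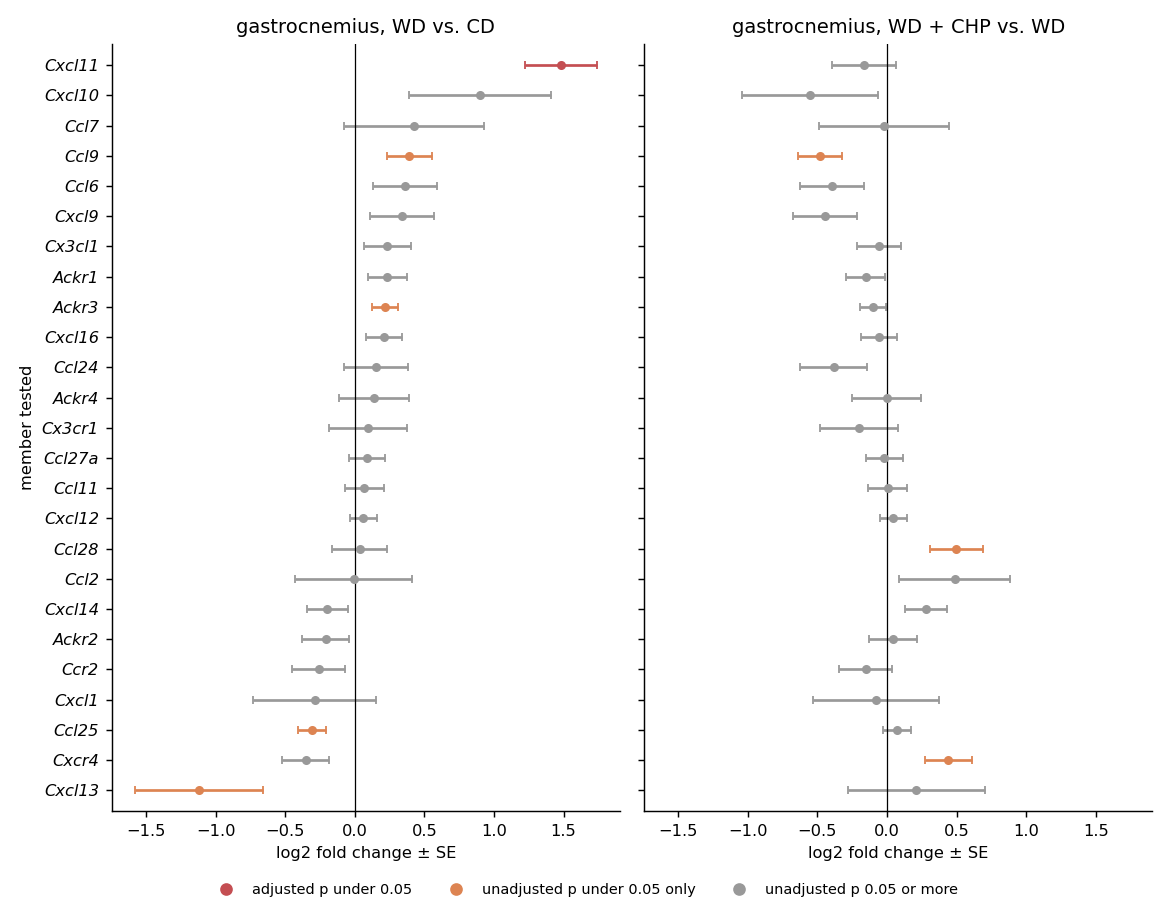
Log2 fold change of 25 of the 26 gastrocnemius members tested in WD vs. CD and in WD + CHP vs. WD, with bars of 1 SE. *Cxcl11* in WD vs. CD is the only value with an adjusted p under 0.05.

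CHP was accompanied by no called change in gastrocnemius either. In WD + CHP vs. WD, 0 of 26 members were called by edgeR, DESeq2 or limma-voom, beside 0.409% of all genes by edgeR, and no member was without overlap, beside 2.83% of all genes. An unadjusted p under 0.05 was found for 3 members (11.5%, beside 12.5% of all genes). These were *Ccl9* (log2 fold change −0.48 ± 0.16, adjusted p = 0.212), *Cxcr4* (0.44 ± 0.17, adjusted p = 0.278) and *Ccl28*, which had 0.731 ± 0.0767 CPM in WD and 1.03 ± 0.184 CPM in WD + CHP (0.50 ± 0.19, adjusted p = 0.296). The median was −0.06, with 17 of 26 below 0, and the median over all genes was −0.013. Single libraries moved the members' median. Leaving out replicate 1 of WD + CHP brought it to −0.00253, replicate 4 of that group to −0.0103 and replicate 3 of WD to −0.033. It was −0.09 when replicate 4 of WD was omitted, −0.0959 for replicate 2 of WD + CHP and −0.111 for its replicate 3. In WD + CHP vs. CD, *Cxcl11* was again the 1 member called (3.85%, beside 9.40% of all genes) and the 1 higher without overlap (beside 4.55% of all genes).

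Adipocyte markers moved with the diet in gastrocnemius, and their part in the results was not tested. Of 10, 9 were above 0 in WD vs. CD with 5 called, among them *Lep* (3.96) and *Adipoq* (1.00), *Cfd* was called lower (−1.59), and in WD + CHP vs. WD 5 were called lower. Their sum had a median of 145 CPM in CD (114 to 188), 204 in WD (171 to 221) and 128 in WD + CHP (100 to 166). Macrophage markers were above 0 for 11 of 12 in WD vs. CD and below 0 for 12 of 12 in WD + CHP vs. WD, with 0 called in either and 4 and 3 at an unadjusted p under 0.05, and the sum had medians of 67.6 (58.1 to 94.1), 95.6 (66.4 to 103) and 63.1 CPM (52.7 to 90.8). Hepatocyte markers summed to medians of 9.08 CPM in CD (5.7 to 75.7), 43.3 in WD (25.9 to 111) and 12.8 in WD + CHP (8.38 to 24.4). CD replicate 1, at 75.7 CPM, stood apart from the other CD libraries, of which the highest had 13.1 CPM. Of the 6 hepatocyte markers tested, *Hp* was called higher in WD (log2 fold change 2.21) and lower in WD + CHP, and the median log2 fold change of the list was 0.33 in WD vs. CD and −3.56 in WD + CHP vs. WD, where all 6 were below 0 with an unadjusted p under 0.05. Of 7 dendritic cell markers, *Zbtb46* and *Itgax* were called higher, and of 12 fast fibre markers *Myl1*, *Ckm* and *Acta1* were called lower. Calls in WD vs. CD were 0 of 8 fibroblast, 8 endothelial, 6 lymphatic and 4 mast cell or eosinophil markers, of which 2, 1, 0 and 0 had an unadjusted p under 0.05. Lists of B cell, T cell, monocyte, neutrophil and proximal tubule markers had 1 marker tested each, of which 0 were called and 1, the T cell marker, had an unadjusted p under 0.05, and the NK cell list had 0 tested.

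In gastrocnemius, calls in WD vs. CD were made for 4 of 36 signalling genes, 1 of 6 chemokine family genes outside the naming rule, 2 of 12 carriers and proteases and 0 of 7 inducers, beside 8.63% of all genes, and in WD + CHP vs. WD the share over all genes was 0.409%. Of the signalling genes, the kinase *Ptk2b* was upregulated in WD vs. CD (log2 fold change 0.62 ± 0.12, adjusted p = 0.00323) and downregulated in WD + CHP vs. WD (−0.76 ± 0.12, adjusted p = 0.00951). The lipid kinase subunit *Pik3cd* (−0.60 ± 0.092, adjusted p = 0.000843), the Rac activator *Prex1* (−0.36 ± 0.098, adjusted p = 0.0322) and *Jak2* (−0.39 ± 0.1, adjusted p = 0.0253) were downregulated in WD vs. CD. *Ccrl2*, an atypical receptor that presents chemerin, was downregulated (−0.92 ± 0.13, adjusted p = 0.000376) among the family genes outside the naming rule. Of the carriers and proteases, *Sdc4* (0.44 ± 0.12, adjusted p = 0.028) and *Adam10*, which sheds *Cx3cl1* and *Cxcl16* (0.23 ± 0.05, adjusted p = 0.00795), were upregulated. Of the inducers of chemokine genes, 1, *Nfkbia*, had an unadjusted p under 0.05.

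The response to WD differed between the tissues for 3 of the 22 members tested in both (13.6%, beside 6.08% of all 13943 genes tested), by the difference of the fold changes in 1 fit of all 30 libraries. That fit takes all libraries as separate mice, although some mice must have given both tissues. For *Cxcl13*, the log2 fold change was 2.76 in kidney and −1.12 in gastrocnemius, a difference of 3.88 ± 0.69 (adjusted p = 0.000616). For *Cxcl11*, it was −0.21 in kidney, where WD libraries had 0.385 ± 0.0891 CPM and CD libraries 0.447 ± 0.144 CPM, and 1.48 in gastrocnemius, a difference of −1.68 ± 0.37 (adjusted p = 0.00443). For *Ackr2*, the difference of 1.08 ± 0.33 was just under the threshold (adjusted p = 0.05), and the call was lost in 20 of 26 alternatives. *Cxcl1*, called in kidney, differed by 2.12 ± 0.66 (adjusted p = 0.0537), just above the threshold, and *Ccl2* by 1.17 ± 0.64 (adjusted p = 0.313). *Ackr3* differed by 0.14 ± 0.13 (adjusted p = 0.613).

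For WD + CHP vs. WD, 0 of the 22 members differed between the tissues by edgeR, DESeq2 or limma-voom, beside 0.667% of all genes by edgeR, and 5 had an unadjusted p under 0.05 (22.7%, beside 13.8% of all genes). The lowest were those of *Cxcr4* (−0.63 ± 0.22, unadjusted p = 0.00835, adjusted p = 0.184) and *Ccl9* (0.63 ± 0.22, unadjusted p = 0.0087, adjusted p = 0.186).

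**Figure D5:**
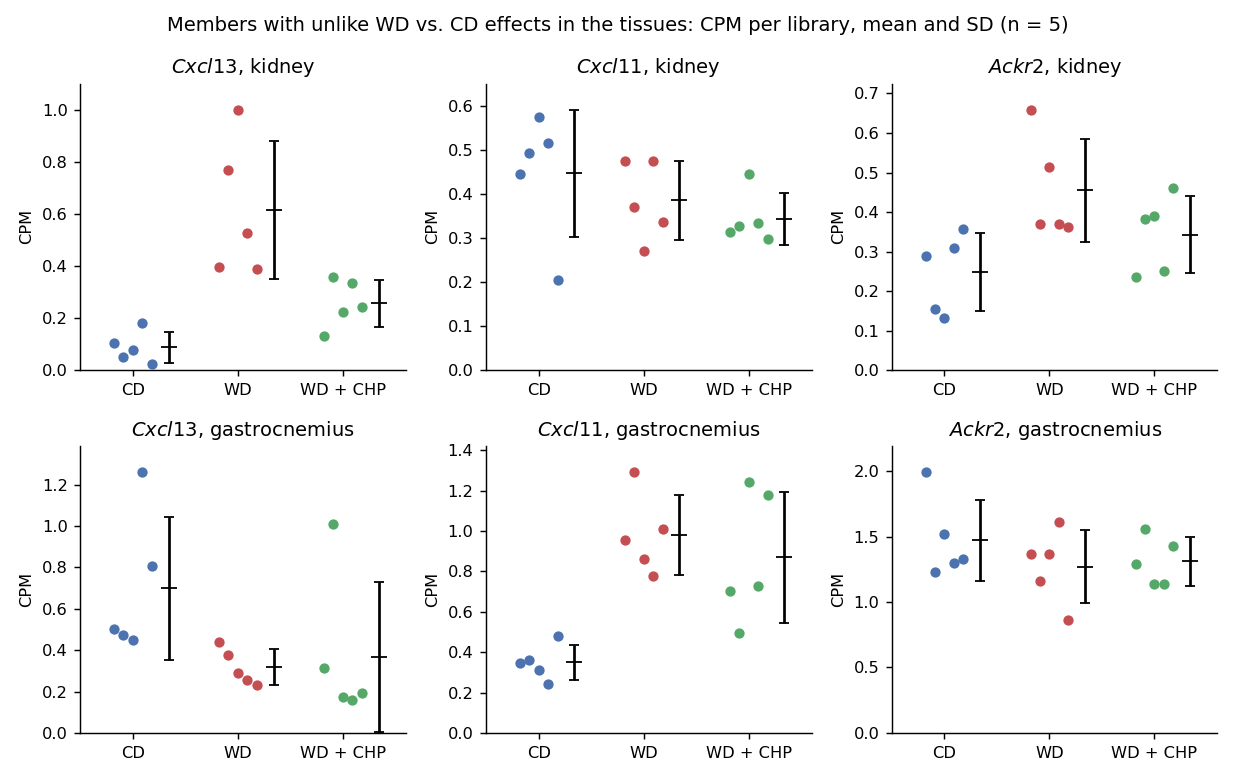
Level in CPM of *Cxcl13*, *Cxcl11* and *Ackr2* in each kidney library (upper row) and each gastrocnemius library (lower row), grouped as CD, WD and WD + CHP, with the mean ± SD (n = 5) beside each group. For *Cxcl13*, every WD library lies above every CD library in kidney and below every CD library in gastrocnemius, and for *Cxcl11* every WD library lies above every CD library in gastrocnemius, whereas its kidney groups overlap.

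Members without a count were ligands in both tissues. In both they were all copies of *Ccl21* listed for the tissue, a second copy of *Ccl19* and of the *Ccl27* gene, and *Ccl27b*. *Ccl21d* is listed for gastrocnemius only. Kidney also lacked counts of *Ccl26*, and gastrocnemius those of *Ccl1*, *Ccl20* and *Cxcl15*. The copies share sequence with other genes (71.6% of the 50-base windows of 1 *Ccl21a* gene, 100% of *Ccl21b* and 98.1% of *Ccl27b*), so their reads could be lost in counting and no limit is given for them. For the others, no count in 15 libraries allows a level of up to 0.0053 CPM for *Ccl26* in kidney and 0.00383 CPM for *Ccl1*, *Ccl20* and *Cxcl15* in gastrocnemius, at 3 counts over the total and for counting error only.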

How the data were processed

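Polyadenylated RNA from kidney and gastrocnemius was sequenced in 30 libraries, 5 for each of CD, WD and WD + CHP per tissue, taken as the labels name them. The authors aligned the reads with STAR 2.7.3a to GRCm38 (mm10), as the submitters' processing notes list them, and deposited raw counts, that is, unnormalised whole read numbers for every gene. The counting tool, annotation and strand setting are not given in the sources used here, so counts of overlapping or near-identical genes are uncertain. 0 columns were without a sample and 0 rows without a gene name. The labels and the paper do not name the same starting tissue and extraction kit.

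Within a tissue, filterByExpr (minimum count 10, by group) left 17120 kidney and 15419 gastrocnemius genes with 99.93% and 99.95% of the counts. After TMM scaling of the library sizes, 1 model of the 3 groups was fitted and tested by the two-sided quasi-likelihood F test of edgeR 4.0.16 (R 4.3.3). P-values were adjusted by Benjamini-Hochberg over every gene that passed the filter, and 0.05 was the threshold. Standard errors (SE) were derived from the F statistic of each fold change. The difference between tissues was tested in 1 fit of the 30 libraries over the 13943 genes kept in both, without a term for shared mice. CPM use the TMM-scaled library sizes, and lengths and coordinates come from GENCODE M21. Replicates of a group differed beyond counting error, with a chi-square per gene of 10.6 to 22.8 in kidney and 9.82 to 47.2 in gastrocnemius. The ranges cover only the pairs of libraries with a value, which most gastrocnemius CD and WD pairs and several kidney pairs lacked. The common biological coefficient of variation was 9.62% and 11.6%, and the mitochondrial share of the counts was 17.79% to 21.06% and 7.74% to 11.53%. The edgeR fit within a tissue was tested on simulated counts, with changes set only in genes of higher counts. Members with few counts, the fit across tissues and the alternatives were not covered by that simulation.

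Members called in WD vs. CD or WD + CHP vs. WD are given with every library. Members with an unadjusted p under 0.05, the 5 most abundant ligands and receptors per length of each tissue and the named ligand and receptor pairs are given with means and errors, and the others by ranges. A few items are not reported here or plotted, but stay in the counts of genes tested and called. Up to 6 called genes are named per pathway list. The marker lists cover macrophages, monocytes, neutrophils, T cells, B cells, NK cells, dendritic cells, mast cells and eosinophils, blood and lymphatic endothelium, fibroblasts, adipocytes, hepatocytes, proximal tubule and fast fibres. The members, lists and rule were chosen with earlier results of these data known. The alternatives were DESeq2 1.42.0, limma-voom (limma 3.58.1), scaling by the size factors of DESeq2 or by total counts, no filter, at least 10 counts in every library, a block for the replicate number, a fit of just the 2 groups compared and the omission of each library in turn. A correction for exon length and GC content, alone or together with the block, was added after the data were seen, for the fits within a tissue.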

Additional observations from a re-analysis of the deposited data

Results flagged for a closer look

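Of 183 groups of 5 libraries searched, 8 (4.37%) held a library whose gap to the next exceeded 0.71 of the group's range, a rate that chance gives in about 1 in 20 groups. In gastrocnemius, WD + CHP replicate 3 stood above the other libraries of its group for *Ccl2* (0.706 CPM, next 0.305), *Ccl7* (0.477, next 0.133) and *Cxcl1* (0.477, next 0.191), and WD + CHP replicate 2 for *Cxcl13* (1.01, next 0.312). In kidney, WD + CHP replicate 4 stood above for *Cxcl1* (4.44 CPM, next 1.72) and WD + CHP replicate 3 for *Cxcl11* (0.445, next 0.333). Kidney CD replicate 1 stood below for *Ccl27a* (8.93 CPM, next 10.6) and kidney WD + CHP replicate 5 for *Cxcr3* (0.595, next 0.794).

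The effect of WD vs. CD differed between the tissues for *Cxcl13* (kidney minus gastrocnemius, 3.88 on the log2 scale), *Cxcl11* (−1.68) and *Ackr2* (1.08), by the edgeR test of the difference.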

How the results depend on the processing

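Members had 32 fold changes with an unadjusted p under 0.05 in WD vs. CD, WD + CHP vs. WD or the difference between tissues. No value of these turned its sign under the alternatives run, nor did the 6 medians over the members. The medians include WD + CHP vs. CD, for which the fold changes of single members were not followed. In WD vs. CD and WD + CHP vs. WD, members tested had 134 other fold changes, none with an unadjusted p under 0.05. Of these, 50 had the other sign under at least 1 alternative (218 of 2878 values). The largest main log2 fold change among them had a size of 0.51, that of *Cxcr5* in kidney WD + CHP vs. WD, which was negative but not so without WD replicate 3. Of 692 alternative values for the 32 fold changes, 647 stayed on their side of the threshold, 24 lost the call and 21 gained it. The 120 alternative medians moved by less than the SD, within groups, of the median member level of a library. The alternatives reuse mostly the same libraries, so this says little about how stable the medians are. Without each replicate, the medians still ranged widely, from 0.046 to 0.19 in gastrocnemius WD vs. CD, −0.11 to −0.0025 in WD + CHP vs. WD and 0.017 to 0.13 in WD + CHP vs. CD, and from 0.0711 to 0.195 in kidney WD + CHP vs. CD. With no filter, the gastrocnemius median of WD + CHP vs. CD was 0. In kidney WD vs. CD, the count of 5 called members ranged from 4 to 6 over 20 alternatives, and *Cxcl1* and *Cxcl16* were called in all 20. *Cxcl13* was called in the 18 in which it had an adjusted p. It did not pass the filter of at least 10 counts in every library, and DESeq2 gave it a log2 fold change of 2.81 with an unadjusted p of 9e-09 and no adjusted p. *Cxcl12*, not called in the main analysis, was called in 7 of 20 and *Ccl2* in 2 of 20. *Ccl5* also lost its call with the length and GC correction and the block together. In WD + CHP vs. WD, the count was 0 under every alternative in both tissues and for their difference. In kidney WD + CHP vs. CD, leaving out each replicate gave 2 to 6 called members. In gastrocnemius WD vs. CD, the count of 1 was 2 with DESeq2 and 2 with the length and GC correction, and 1 to 2 without each replicate, *Ccl25* being added without CD replicate 2. In WD + CHP vs. CD it was 1 to 2, with 2 without WD + CHP replicate 2. For the difference between tissues in WD vs. CD, the count of 3 was 0 with at least 10 counts in every library, where *Cxcl13*, *Cxcl11* and *Ackr2* were not tested, and 2 to 4 without each replicate. *Cxcl13* and *Cxcl11* were called in all 26 alternatives that tested them, and the adjusted p of *Ackr2* ranged from 0.031 to 0.128.

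Libraries with the same replicate number did not deviate together (correlations of −0.0907 to 0.144 in kidney and −0.126 to 0.146 in gastrocnemius), and 4 and 2 of 15 library pairs matched best with their own number. With the replicate block, 5 kidney and 1 gastrocnemius members were called in WD vs. CD, and 2 in the difference between tissues. Over all kidney genes, the block moved the calls from 1652 to 1582 in WD vs. CD and from 18 to 70 in WD + CHP vs. WD, and over all gastrocnemius genes from 1330 to 1147 and from 63 to 44. The 63 gastrocnemius genes were 249 by DESeq2 and 12 to 92 without each replicate. Members with few counts, *Cxcl13* in kidney among them, carry wide errors.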
